A study of Mus musculus with 32 samples.

Results

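The genes described here are 35 mouse genes whose products copy DNA, from the licensing of replication origins to the supply of nucleotides. They were taken as a named list, and a gene with several probe sets is given by the brightest one on average. All 35 had a probe set on the array, and 34 were among the 13345 genes tested. Tyms, thymidylate synthase, was not tested, because its highest signal on any array, 87.9, lay under the median of all values, 100.4. RNA came from a part of the lung of single mice and was run on 32 Affymetrix arrays, 1 per mouse, from Gsr-KO and Gsr-WT mice of the C3H/HeN strain. Gsr encodes glutathione reductase, which regenerates reduced glutathione. The groups were KO E19 and WT E19 (embryonic day 19, 4 arrays each), then KO and WT at P5 after hyperoxia, at P5 in room air, at P56 after hyperoxia and at P56 in room air (3 arrays each). Hyperoxia was 100% O2 without interruption from P0 to P5, with the dams exposed too, so the P56 hyperoxia mice had their oxygen as newborns. The kind of Gsr allele and the sex of the mice are not given in the sources used here. The labels speak of separate mice but not of litters, so the p-values measure the spread between these mice only.

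Replication begins when the origin recognition complex, CDC6 and CDT1 load the MCM helicase onto origins in G1, a step that geminin blocks once S phase has begun. The CDC7 kinase, CDC45, the GINS complex and MCM10 then turn the loaded helicase into a working one, polymerase alpha-primase makes the primers, and polymerases delta and epsilon extend them on the PCNA clamp that replication factor C loads. Most of these genes are transcribed around the G1 to S transition under E2F factors, so in a tissue their transcripts follow the share of cells that are cycling. The mouse lung forms most of its alveoli after birth and few of its cells divide in the adult.

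E2F factors bind 8-base sites in promoters, so the members' promoters are shown before their values. RefSeq promoters (GRCm38.p6, 250 bases before to 50 after each start) were found by symbol for 28 of the 35 genes. The motif was searched as TTTGGCGC, TTTCCCGC, TTTGCCGC or TTTCGCGC on both strands, and on opposite strands these can overlap, as in Mcm6 and Mcm5. It was in a promoter of 11 members (39.3% of 28), namely Cdc6, Cdt1, Orc1, Mcm3, Mcm5, Mcm6, Mcm7, Pola1, Pold1, Rfc3 and Lig1. Of the 10729 tested genes with a promoter in the table, 480 (4.47%) held it, as did 2.6% of all 27025 genes there. Counted by promoter, 11 of the members' 33 (33.3%) held it, against 2.26% of all 32851. The following stretches run from 160 to 21 bases before the start, 5′ to 3′ on the gene's strand, with the motif in capitals. Mcm6, Mcm5, Cdc6 and Pola1 hold it in this stretch. Rrm2 and Rpa1, the members with one of the widest and with the narrowest range of levels, hold none of these letters in the whole window.
Mcm6, chr1:128359726-128359865, reverse strand: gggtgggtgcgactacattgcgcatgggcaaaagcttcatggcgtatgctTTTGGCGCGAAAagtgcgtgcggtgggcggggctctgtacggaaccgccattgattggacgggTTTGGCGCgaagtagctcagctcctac
Mcm5, chr8:75109349-75109488, forward strand: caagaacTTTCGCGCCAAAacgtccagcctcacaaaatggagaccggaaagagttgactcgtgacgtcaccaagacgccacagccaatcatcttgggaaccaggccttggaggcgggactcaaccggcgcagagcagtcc
Cdc6, chr11:98907991-98908130, forward strand: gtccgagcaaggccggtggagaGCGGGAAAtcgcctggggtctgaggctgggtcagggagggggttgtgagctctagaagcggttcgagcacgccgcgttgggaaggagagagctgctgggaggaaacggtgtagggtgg
Pola1, chrX:93632176-93632315, reverse strand: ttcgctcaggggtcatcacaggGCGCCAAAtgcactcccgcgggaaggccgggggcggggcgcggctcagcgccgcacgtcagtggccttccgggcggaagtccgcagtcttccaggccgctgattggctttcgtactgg
Rrm2, chr12:24708094-24708233, forward strand: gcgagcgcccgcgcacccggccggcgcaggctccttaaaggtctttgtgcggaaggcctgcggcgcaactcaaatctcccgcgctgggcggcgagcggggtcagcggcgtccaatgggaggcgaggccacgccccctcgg
Rpa1, chr11:75348404-75348543, reverse strand: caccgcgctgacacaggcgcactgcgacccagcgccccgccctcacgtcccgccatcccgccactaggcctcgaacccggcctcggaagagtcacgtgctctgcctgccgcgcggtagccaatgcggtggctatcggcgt
Members with and without these letters changed by similar medians at E19, with no test of the difference. At E19 the median log2 change of KO against WT was -0.90 for the 11 with the motif and -0.97 for the 16 tested without it, and for P56 against P5 in WT air it was -1.65 for those with the motif and -1.19 for those without. The CCAAT motif, the site of the NF-Y factor, was in the promoters of 17 members (60.7%), against 42.1% of the tested genes.

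Lung markers were high on every array (Sftpc, a surfactant protein of type II cells, 12636 to 28636 signal units), and Gsr was 138 to 257 units on the 16 KO arrays, against 498 to 1541 on the 16 WT arrays. Several arrays stood apart from their groups. KO P5 air replicate 1 was most like an E19 array (KO E19 replicate 2, Pearson r over all probe sets 0.980), more than like its own group (0.977). WT E19 replicate 1 was in turn closest to KO P5 air replicate 1 (0.978), more than to its own group (0.965). The 4 KO E19 arrays were also each closest to an array of another group. For Cdkn1a, the p21 inhibitor that the DNA damage factor p53 induces and that binds PCNA, KO P5 hyperoxia replicate 1 had 1296 units, against 8384 and 8155 in the other 2 arrays of its group, and WT P5 air replicate 3, which was closest to a WT P5 hyperoxia array, had 6352 units, against 848 and 839.9 in the other 2. KO E19 replicate 1 and WT P56 hyperoxia replicate 2 had the highest log2 ratios of 3′ to 5′ probe sets for actin and Gapdh, 4.27 and 2.81, against at most 1.55 on the other arrays. Liver transcripts were high on 3 of the 4 WT E19 arrays. Values without these arrays stand beside the results they move or as ranges among the alternatives at the end.

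The replication genes were high in young lungs and low in adult ones, with KO E19 as the exception. For an array, the replication level averages, over the 34 genes, the log2 signal (with an offset of 26.3 added) minus that gene's own average on the 32 arrays. It was -0.41, -0.66, -0.14 and -0.27 on the KO E19 arrays, against 0.36, 0.66, 0.36 and 0.86 on the WT E19 arrays. At P5 it was 0.57, 0.61 and 0.60 in KO hyperoxia and 0.43, 0.58 and 0.58 in WT hyperoxia. In P5 air it was -0.30, 0.60 and 0.53 in KO and 0.73, 0.87 and 0.65 in WT. All 12 P56 arrays lay between -0.81 and -0.41, a range that KO E19 replicate 2 shared and KO E19 replicate 1 bordered on, and the lowest P5 hyperoxia and WT E19 arrays were at 0.43 and 0.36. Signals below are in units of the array scale, given in the order of the replicate numbers. The group mean was highest in WT P5 air for 21 of the 34 genes, in WT E19 for 8 and in KO P5 hyperoxia for 5. It was lowest at P56 for 32, and in KO E19 for Orc1 and Rpa2. The Rpa2 mean in KO E19, 278, includes 120.2 from replicate 1, and the next lowest, 326 in WT P56 hyperoxia, includes 225 from replicate 2. Both are arrays of high 3′ to 5′ ratio, so the place of Rpa2 depends on which of them are kept.

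**Figure D1:**
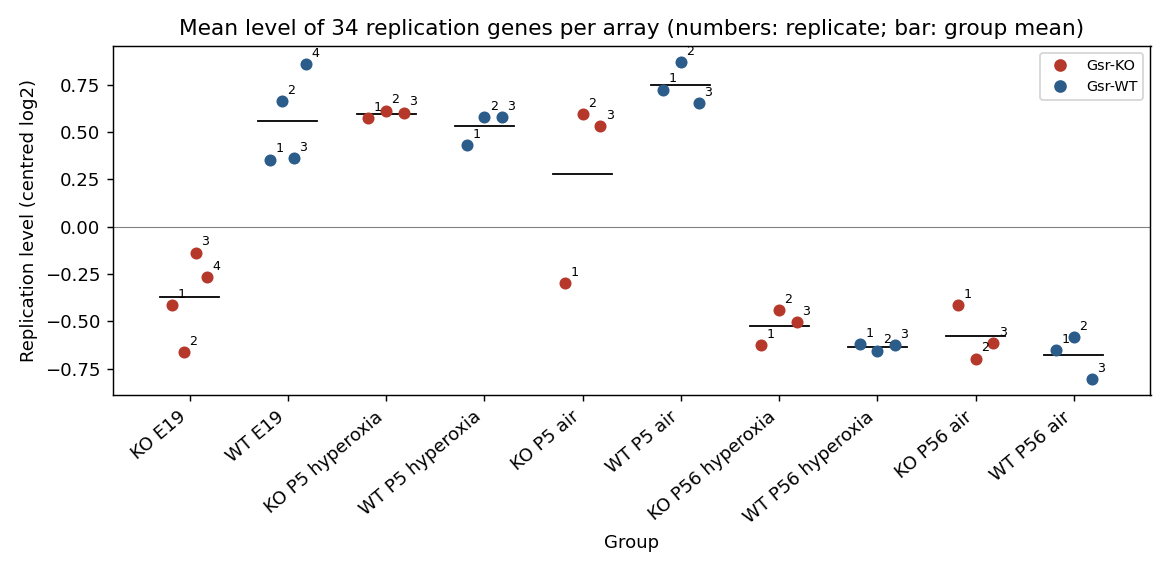
Replication level (y axis, mean over 34 genes of centred log2 signal) of each of the 32 arrays by group (x axis), with points for arrays and a bar for each group's mean. The 12 P56 arrays sit between -0.81 and -0.41, and KO P5 air replicate 1 sits at -0.30, away from the other 2 arrays of its group at 0.60 and 0.53.

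The genes differed in how far they ranged. The ratio of the highest to the lowest group mean was 9.86 for Cdc6, 8.66 for Tk1 and 7.40 for Rrm2, and it was under 2 for Rpa1 (1.53), Orc6 (1.78), Gins4 (1.88), Pcna (1.91) and Gmnn (1.95). Cdc6, the loader that cells make anew in each cycle, ran from a mean of 40.01 units in WT P56 air to one of 395 units in WT E19. Rpa1, the large subunit of the protein that coats single-stranded DNA and also serves DNA repair, ran only from 3412 units in WT P56 air to 5225 units in KO P5 hyperoxia. Signals of different probe sets depend on their probes, so these ratios compare each gene with itself only.

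**Figure D2:**
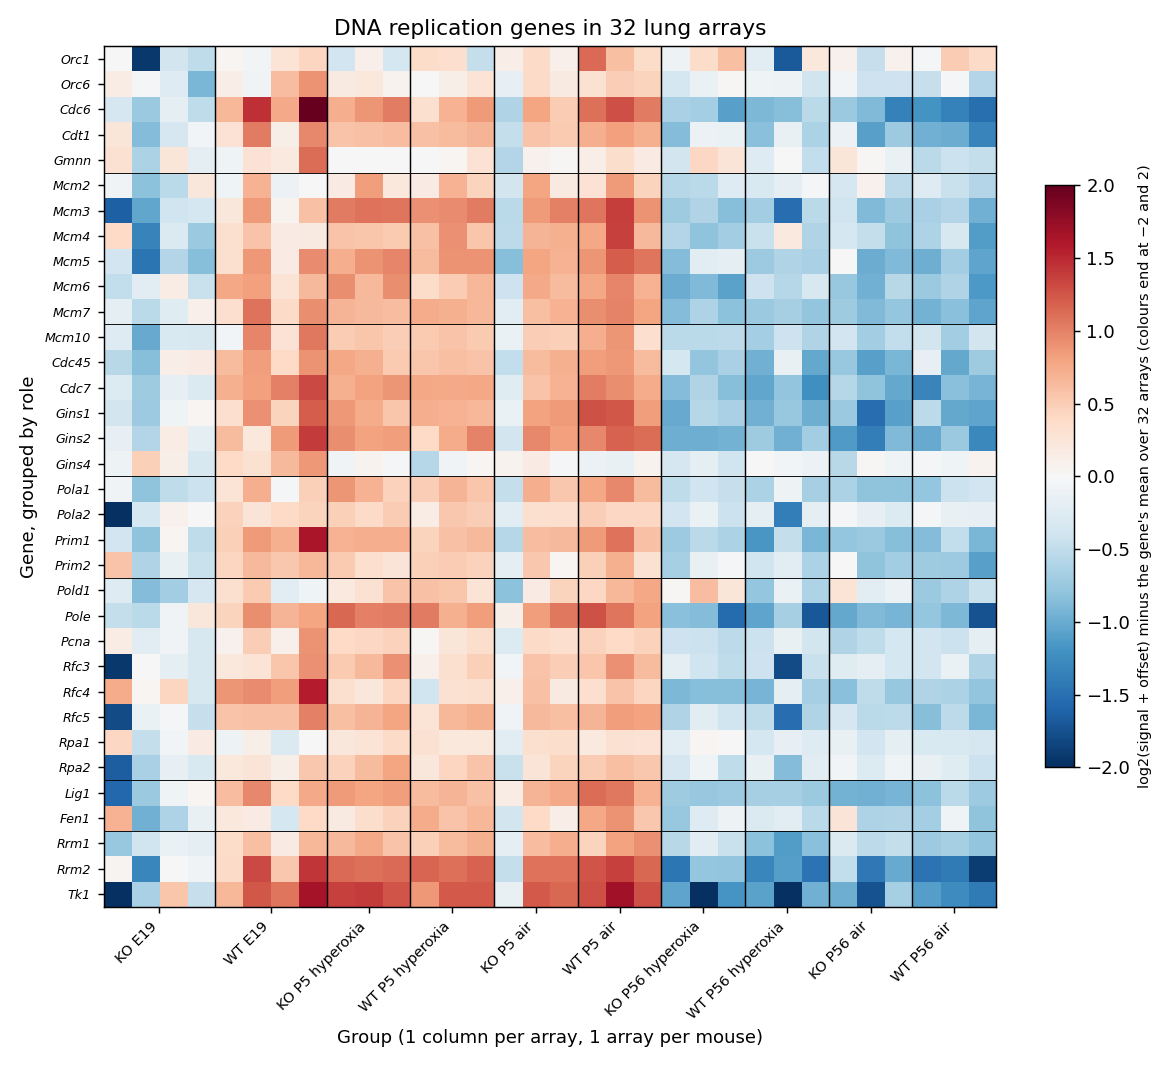
Centred log2 signal (colour, ending at -2 and 2) of the 34 genes (rows, by role) on the 32 arrays (columns, in the 10 groups). The P56 columns are low for most genes, the KO E19 columns are low beside those of WT E19, and KO P5 air replicate 1 is paler or bluer than the other 2 columns of its group.

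Between P5 and P56 the replication genes fell in each genotype and exposure. At P56 against P5 in KO air 20 of the 34 genes were lower and none higher, with a median log2 change of -0.84, where 14.3% of all genes tested were lower (29.6% called in either direction, limma adjusted p under 0.05). At P56 against P5 in WT air 31 were lower and none higher, with a median of -1.43, where 10.8% of all genes were lower (22.9% in either direction). After hyperoxia 26 were lower in KO, with a median of -1.12, and 29 in WT, with a median of -1.14, where 12.4% and 10.7% of all genes were lower (28.6% and 24.1% in either direction). The median over all genes was at most 0.04 from 0 in these 4 comparisons. Centring the arrays on their medians moved it to between -0.12 and 0.20, and the members' medians then lay between -1.36 and -0.94. In bulk lung, fewer cells of a dividing type and less of these transcripts per cell cannot be told apart. The same 20 genes were lower in all 4 comparisons. Orc1, by its brightest probe set, and Gins4, by its single probe set, were called in none.

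The nucleotide supply genes had the lowest median of the 7 roles in all 4 comparisons, -1.54 in KO air and -2.68 in WT air. Rrm2, the small subunit of ribonucleotide reductase that cells make in S phase, had 794, 832 and 585 in WT P56 air lungs, against 5449, 5854 and 5069 in WT P5 air lungs. All WT P56 air arrays lay far under all WT P5 air arrays, a log2 change of -2.86 (SE 0.35, limma adjusted p = 9.66e-07). In KO it had 1592, 821 and 1111 in KO P56 air lungs, against 1613, 4843 and 4822 in KO P5 air lungs, and there KO P5 air replicate 1 lay just above the highest P56 array. Tk1, the thymidine kinase of S phase, had 119.8, 105 and 92.3 in WT P56 air lungs, against 741, 978 and 746 in WT P5 air lungs, with no overlap, and changed by -2.68 (SE 0.45, limma adjusted p = 8.49e-05). In KO air it changed by -1.87 (SE 0.45, limma adjusted p = 0.0026), the widest change of all members there, and in KO after hyperoxia by -2.79 (SE 0.45, limma adjusted p = 3.86e-05). Rrm1, the large subunit, changed by -1.45 (SE 0.19, limma adjusted p = 3.07e-06) in WT air. All 3 tested genes of this role were called lower in all 4 comparisons.

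Among the licensing genes the age change was uneven. Cdc6 had 47.4, 39.8 and 32.8 in WT P56 air lungs, against 334, 387 and 319 in WT P5 air lungs, a log2 change of -2.49 (SE 0.30, limma adjusted p = 5.56e-07). Its P56 signals were under the median of all values on every array of this group, so its size depends on the offset and ran from -1.67 with an offset of 100 to -3.09 with an offset of 1. Cdt1, its partner in loading the helicase, changed by -1.85 (SE 0.30, limma adjusted p = 4.14e-05). Orc6, a subunit of the origin recognition complex, changed by -0.77 (SE 0.23, limma adjusted p = 0.0159) and Gmnn, which encodes geminin, by -0.70 (SE 0.25, limma adjusted p = 0.0482), a call that 13 of 21 alternative settings did not keep for Gmnn. Neither was called in KO air, where their changes were -0.43 and 0.20. Orc1, the cycling subunit of the origin recognition complex, had 125, 193 and 174 in WT P56 air lungs, against 311, 208 and 174 in WT P5 air lungs. These groups overlapped, and the change of -0.42 was not called (limma adjusted p = 0.509). Its other probe set, dimmer on average, changed by -0.99 (limma adjusted p = 0.0189 over all probe sets kept), so the call for Orc1 rests on the probe set.

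All 6 genes of the MCM helicase were lower at P56 in WT air, by a median of -1.75, and 3 of them, Mcm3, Mcm6 and Mcm7, in KO air, by a median of -0.96 over the 6. Mcm5 had 819, 994 and 767 in WT P56 air lungs, against 3036, 3816 and 3442 in WT P5 air lungs, without overlap, a change of -1.97 (SE 0.33, limma adjusted p = 6.09e-05). In KO air it had 1626, 802 and 876 in KO P56 air lungs, against 889.5, 2828 and 2655 in KO P5 air lungs. The KO groups overlapped there through the lowest P5 array, and the change of -0.84 just missed the threshold (limma adjusted p = 0.0536), as did that of Mcm4 (limma adjusted p = 0.0525). Mcm2 changed least of the 6, by -0.96 (SE 0.28, limma adjusted p = 0.0115) in WT air.

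Of the helicase activation genes 5 of 6 were lower in all 4 comparisons. Gins2 and Gins1, subunits of the GINS complex, changed by -2.10 and -1.98 in WT air, by -1.61 and -1.63 in KO air. Cdc7, the kinase that fires origins, changed by -1.92 (SE 0.21, limma adjusted p = 1.04e-07) in WT air. Gins4, from the same complex as Gins1 and Gins2, did not follow them. It had 747, 709 and 801 in WT P56 air lungs, against 699.9, 680.3 and 795 in WT P5 air lungs, which overlapped, a change of 0.05 (SE 0.18, limma adjusted p = 0.885).

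Both catalytic subunits of the main polymerases were lower in WT air, Pole (epsilon) by -2.18 (SE 0.27, limma adjusted p = 1.19e-06) and Pold1 (delta) by -1.21 (SE 0.26, limma adjusted p = 0.000947). Pole had 84.2, 74.8 and 30.4 in WT P56 air lungs, against 428, 369.9 and 304 in WT P5 air lungs, and as its P56 signals lay under the median of all values, its change ran from -1.53 with an offset of 100 to -2.63 with an offset of 1. Pold1 was not called in KO, at 0.05 in air and -0.06 after hyperoxia. The genotype difference of these age changes was not tested. Pcna changed by -0.78 (SE 0.18, limma adjusted p = 0.00174) and Rpa1 by -0.57 (SE 0.17, limma adjusted p = 0.012) in WT air. All 8 genes of the polymerase, clamp, loader and RPA role were lower in WT air and 4 in KO air. In the primase role Prim1, Prim2 and Pola1 were lower in WT air, while Pola2 changed by -0.56 and was not called (limma adjusted p = 0.255). Both Okazaki fragment genes were lower in WT air, Lig1 by -1.65 (SE 0.25, limma adjusted p = 1.80e-05) and Fen1 by -1.27 (SE 0.30, limma adjusted p = 0.00299).

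**Figure D3:**
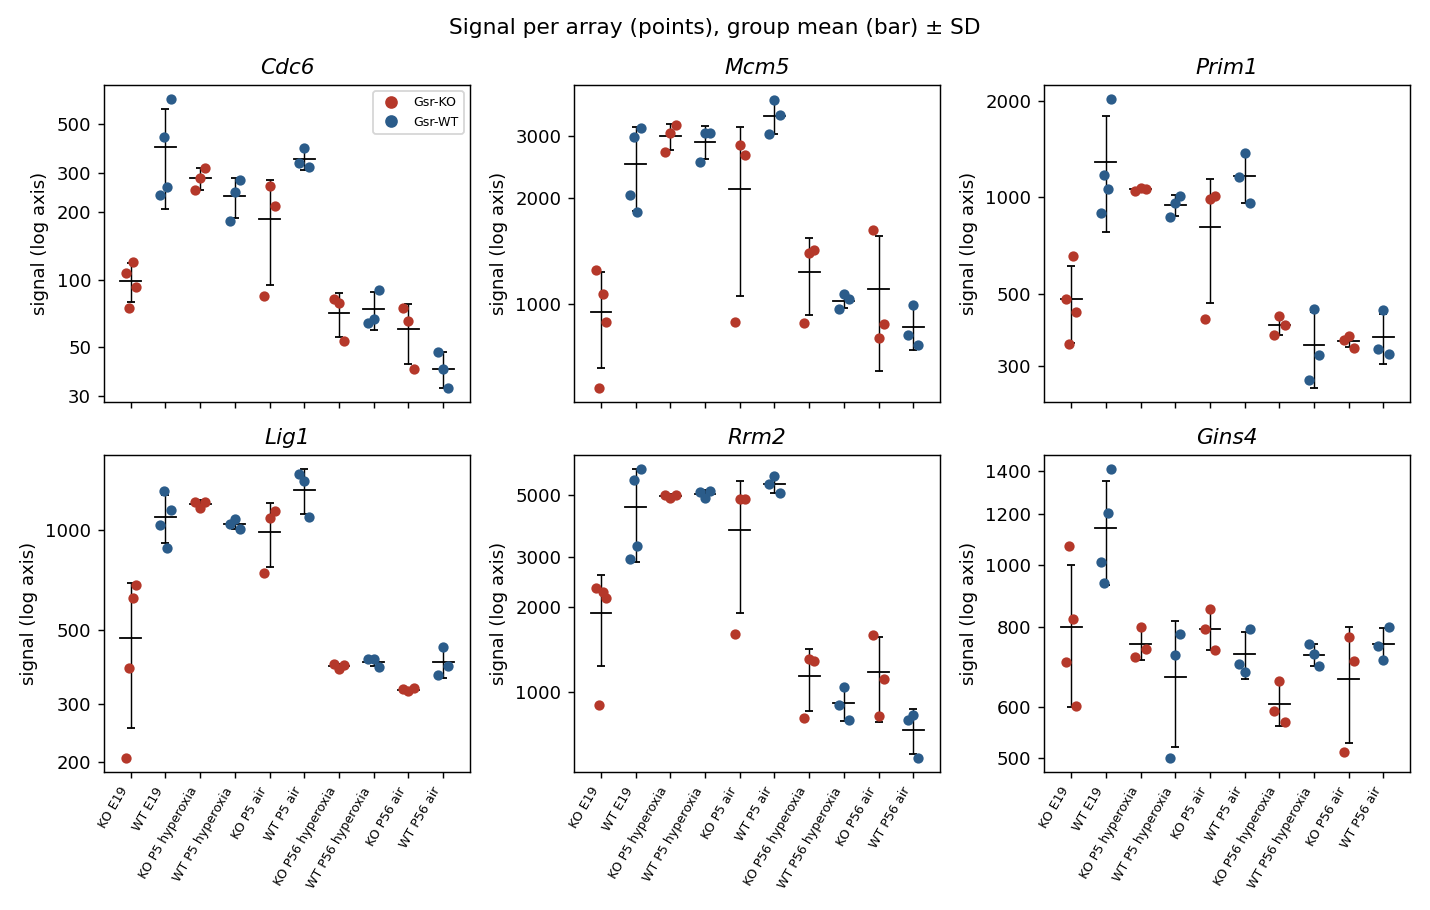
Signal (y axes, log scale) on each array of Cdc6, Mcm5, Prim1, Lig1, Rrm2 and Gins4 by group (x axis), KO in red and WT in blue, with points for arrays and bars for the group mean ± SD. The first 5 genes have their lowest group mean at P56 and a lower mean in KO E19 than in WT E19, and Gins4 stays between 607 and 1140 units in all group means.

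Other tissues moved with age as well. The liver level was 1.46 to 3.43 on the WT P5 air arrays and at most -0.27 on the WT P56 air arrays, with 14 of 20 liver genes lower at P56. With the liver level as a covariate 24 members were lower in WT air. In KO the liver level was at most -0.30 at P5 in air, no liver gene of 20 was called in air, and with the liver level as a covariate 20 members were lower. The 20 erythroid genes, markers of red cell precursors, had 2 called lower in KO air and 10 in WT air. With the erythroid level as a covariate 18 members were lower in KO air and 25 in WT air, and 17 in WT after hyperoxia, against 29 without it. The shares of all genes called with the liver and erythroid covariates are not given here. Skeletal muscle and squamous epithelium genes also differed with age. In KO after hyperoxia 8 of 8 skeletal muscle genes were lower, with a median of -4.88, and 7 of 8 squamous genes, with a median of -2.62. In WT after hyperoxia 4 of 8 skeletal muscle genes were lower, with a median of -2.45, and 1 of 8 squamous genes was lower and 1 higher. In WT air 1 of 8 skeletal muscle genes and 3 of 8 squamous genes were lower, and in KO air none and 1. The 18S signal was 636, 408 and 342 units in KO P56 hyperoxia lungs, against 3542, 5882 and 15688 in KO P5 hyperoxia lungs, and 8395, 6928 and 2612 in KO P56 air lungs, against 512, 229 and 1867 in KO P5 air lungs. The part of these tissues and of the ribosomal signal in the members' age changes was not tested. Without KO P5 air replicate 1, 24 members were lower in KO air, with a median of -1.15, and the share of all genes called in that fit is not given here. Over the 34 genes, all 12 P56 arrays lay under all 12 P5 arrays for 12, and under the other 11 P5 arrays, without KO P5 air replicate 1, for 27.

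Across birth, from E19 to P5 in air, the change in the replication genes was smaller. In KO 4 of 34 genes were higher at P5 than at E19 and none lower, with a median log2 change of 0.69, where 2.21% of all genes were higher and 1.24% lower (3.45% called in either direction). They were Mcm3, 1.29 (SE 0.30, limma adjusted p = 0.0243), Lig1, 1.12 (SE 0.23, limma adjusted p = 0.0186), Rrm1, 0.76 (SE 0.18, limma adjusted p = 0.0244), and Cdc7, 0.71 (SE 0.19, limma adjusted p = 0.0426). Mcm3 had 715, 1922 and 2144 units in KO P5 air lungs, against 323, 499, 793 and 822 in KO E19 lungs, where KO P5 air replicate 1 lay within the E19 range. Without that array 22 genes were higher, with a median of 0.98, and without KO P5 air replicate 2 or replicate 3 none was called. The shares of all genes called without these arrays are not given here. A gain or loss of calls particular to the members therefore cannot be read from these counts. Tk1 had the highest change, 1.41 (SE 0.42, limma adjusted p = 0.0613), and Gmnn the lowest, -0.09. Both ranks rest on KO E19 replicate 1, an array of high 3′ to 5′ ratio. A fit of the 2 groups alone called none, and array weights called 29, where they called 22% of all genes.

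In WT 1 of 34 genes was lower at P5 than at E19, Gins4, and none higher, with a median of 0.24, where 6.23% of all genes were lower and 8.36% higher (14.6% called in either direction). Gins4 had 699.9, 680.3 and 795 units in WT P5 air lungs, against 1011, 937, 1203 and 1409 in WT E19 lungs, without overlap, a change of -0.62 (SE 0.17, limma adjusted p = 0.0162). The Gins4 call was lost without WT E19 replicate 4, without WT P5 air replicate 1 and without WT P5 air replicate 2. The highest change was that of Mcm3, 0.68 (SE 0.30, limma adjusted p = 0.136). The change in KO minus that in WT had a median of 0.48, with 31 of 34 positive and no member called by limma, where 0.187% of all genes were called. At an unadjusted p under 0.05 there were 6 of 34 members and 11.6% of all genes, and with array weights 1 member and 3.15% of all genes were called. Tk1 had the highest difference, 1.15 (SE 0.60, limma adjusted p = 0.457), and Fen1 the lowest, -0.31. These ranks too rest on KO E19 replicate 1.

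Before birth the replication genes were lower in KO than in WT. At E19 28 of the 34 genes were lower in KO and none higher, with a median log2 change of -0.91, where 8.28% of all genes were lower and 6.95% higher (15.2% called in either direction) and the median over all genes was -0.05. For 23 of the 34 all KO arrays lay under all WT arrays, which held for 5.63% of all genes. Centring the arrays on their medians moved the median over all genes to 0.23 and that of the members to -0.63. Centring shifts all genes of an array alike, so the members' distance from all genes, -0.86, could not change with it. Quantile normalization gave medians of 0.05 for all genes and -0.76 for the members, a distance of -0.81.

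The E19 arrays also differed in markers of lung and of other tissues. The liver level was 0.01, -1.65, 0.71 and 0.15 on the KO arrays, against -0.64, 5.62, 4.61 and 5.87 on the WT arrays, and the erythroid level -0.19, -0.28, -0.26 and -0.49 on the KO arrays, against a lowest of -0.40, a median of 1.55 and a highest of 2.43 on the WT arrays. All 20 liver genes and 15 of 20 erythroid genes were called lower in KO, so was Mpo, an enzyme of neutrophil precursors, with 6 others of 10 such genes while 1 was higher, and 5 of 8 squamous epithelium genes were lower. The heart level was 0.21, -0.35, 2.48 and 3.24 on the KO arrays, against 2.27, -1.08, -1.83 and -0.08 on the WT arrays, with 3 of 8 heart genes called higher in KO. Of the 10 lung markers 3 were called higher in KO and none lower, Car4 (1.60), Sftpa1, a surfactant protein (1.08), and Scgb1a1, the secretory protein of club cells (0.50). In WT Car4 and Sftpa1 were also higher at P5 than at E19, by 2.27 and 0.71, and the part of the lung markers in the members' change was not tested. The fetal liver is a blood-forming organ with many dividing cells, and on the 3 WT arrays that carry its transcripts the liver's part and the genotype's cannot be told apart. With the liver level as a covariate 1 member, Cdc7, was called (median -0.70), and with the erythroid level again Cdc7 alone (median -0.60). With the heart level 22 were called (median -0.92). The shares of all genes called with these covariates are not given here. A loss of calls particular to the members therefore cannot be read from these counts.

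WT E19 replicate 1, with a liver level of -0.64 and an erythroid level of -0.40, was the WT array whose levels of both lay within the range of the KO E19 arrays. It lay above every KO E19 array for 25 of the 34 genes, while replicates 2, 3 and 4 did so for 28, 26 and 30. Its replication level was 0.36, equal to that of replicate 3 with a liver level of 4.61, and above the highest KO array at -0.14. It was also the array with the highest heart level in its group, 2.27, and a squamous level of 3.11. Over all probe sets this array was closer to KO P5 air replicate 1 (Pearson r 0.978) than to any other WT E19 array (at most 0.965). With this array as the only WT one, the members' median was -0.73, with no gene called in a fit that assumes it to vary like the other groups. In a fit of the 2 E19 groups alone 1 member was called, Cdc7, at the same median of -0.91, and the share of all genes called there is not given here.

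**Figure D4:**
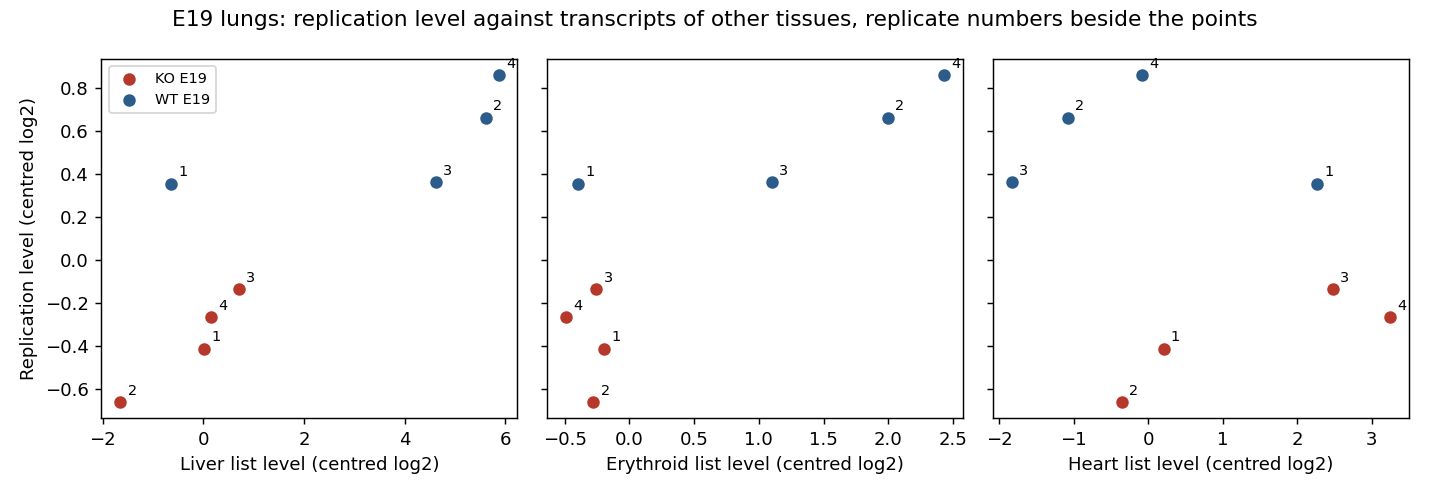
Replication level (y axis) of the 8 E19 arrays against their liver, erythroid and heart levels (x axes, all centred log2), KO in red and WT in blue, with replicate numbers beside the points. WT replicate 1, with a liver level of -0.64, sits at 0.36, above the 4 KO arrays between -0.66 and -0.14.

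In the licensing role 3 of 5 genes were lower in KO at E19. Cdc6 had 107, 74.9, 120.4 and 92.8 in KO E19 lungs, against 239.5, 437, 259.9 and 642 in WT E19 lungs, without overlap, and was 68.4% lower in KO, a log2 change of -1.66 (SE 0.26, limma adjusted p = 0.000145). The KO values lay near the median of all values. Gmnn, the inhibitor of CDT1, changed least of this role. It had 1344, 682, 1282 and 944 in KO E19 lungs, against 1012, 1329, 1243 and 2369 in WT E19 lungs, which overlapped, a change of -0.45 (SE 0.22, limma adjusted p = 0.166). Cdt1 changed by -0.86 (SE 0.26, limma adjusted p = 0.0242) and Orc6 by -0.66 (SE 0.20, limma adjusted p = 0.027). Orc1 changed by -0.87 (SE 0.34, limma adjusted p = 0.0864), and its values in KO, 129, 14.3, 93 and 82.5, were mostly near or under the median of all values.

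In the MCM helicase 4 of 6 genes were lower in KO at E19. Mcm5 had 1249.5, 577, 1071 and 889 in KO E19 lungs, against 2037, 2992, 1831 and 3174 in WT E19 lungs, without overlap, and was 62% lower, a change of -1.40 (SE 0.28, limma adjusted p = 0.00135). Mcm2 had 773, 447, 550.0 and 959 in KO E19 lungs, against 764, 1327, 742 and 816 in WT E19 lungs, which overlapped, a change of -0.42 (SE 0.24, limma adjusted p = 0.229). The other subunits changed by -1.29 (Mcm3), -0.90 (Mcm7) and -0.88 (Mcm6), all called, and by -0.80 (Mcm4, limma adjusted p = 0.0521). The highest KO value of Mcm4, 2717, and the lowest of Mcm3, 323, came from KO E19 replicate 1, the array with the highest 3′ to 5′ ratio. The 6 products form 1 ring, and whether their changes differed from each other was not tested.

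All 6 helicase activation genes were lower in KO at E19. Cdc7 had 184, 129, 199.8 and 180.3 in KO E19 lungs, against 388, 421, 485 and 608 in WT E19 lungs, without overlap, a change of -1.33 (SE 0.18, limma adjusted p = 2.83e-05) and the smallest adjusted p of all members. Gins4 changed least. It had 705, 1068, 825 and 603 in KO E19 lungs, against 1011, 937, 1203 and 1409 in WT E19 lungs, and KO replicate 2 lay above 2 of the WT arrays, a change of -0.51 (SE 0.16, limma adjusted p = 0.0312) that 13 of 25 alternative settings did not keep. Between these, Mcm10 changed by -1.04, Gins1 by -1.01, Gins2 by -0.97 and Cdc45, which joins GINS and the MCM ring in the moving helicase, by -0.97.

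All 4 genes of polymerase alpha-primase were lower in KO at E19. Prim1, the catalytic primase subunit, had 482, 350.3, 656 and 439.9 in KO E19 lungs, against 891, 1171, 1059.8 and 2017 in WT E19 lungs, without overlap, a change of -1.33 (SE 0.24, limma adjusted p = 0.000493). Prim2, the other primase subunit, had 679.8, 285, 400.2 and 323 in KO E19 lungs, against 609, 719.8, 660.1 and 724 in WT E19 lungs, where the highest KO array lay among the WT arrays, a change of -0.72 (SE 0.21, limma adjusted p = 0.0204). Pola2 changed by -0.96 and Pola1, the polymerase itself, by -0.81. The lowest KO value of Pola2, 46.3, and the highest of Prim2 came from KO E19 replicate 1, the array with the highest 3′ to 5′ ratio. Under the alternative settings the Pola2 change ran from -1.18 to -0.48, and 9 of 25 did not keep the call.

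Of the polymerase, clamp, loader and RPA genes 7 of 8 were lower in KO at E19. Rfc5, a subunit of the clamp loader, had 124, 452, 483 and 352 in KO E19 lungs, against 746, 759, 757 and 1029.8 in WT E19 lungs, without overlap, a change of -1.29 (SE 0.27, limma adjusted p = 0.00152). Rfc3, Rpa2, Pole, Rfc4 and Pold1 changed by -1.10, -0.97, -0.93, -0.83 and -0.66. For Pold1, 15 of 25 alternative settings did not keep the call. Pcna, the clamp, changed by -0.51 (SE 0.15, limma adjusted p = 0.0237). Rpa1 had 5703, 3049, 4099 and 4785 in KO E19 lungs, against 3952, 4607, 3472 and 4288 in WT E19 lungs, which overlapped, a change of 0.08 (SE 0.14, limma adjusted p = 0.725), the one positive change among the 34. The lowest KO values of Rfc5 (124), Rfc3 (49.8) and Rpa2 (120.2) and the highest of Rpa1 came from KO E19 replicate 1. This array had the highest 3′ to 5′ ratio, and the size of these changes and the sign for Rpa1 depend on it.

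For the Okazaki fragment genes, Lig1, the ligase that seals the fragments, had 206, 384, 624 and 681 in KO E19 lungs, against 1037, 1312, 879 and 1144 in WT E19 lungs, without overlap, a change of -1.28 (SE 0.22, limma adjusted p = 0.000344). Fen1, the nuclease that trims them, had 2482, 764, 977 and 1364 in KO E19 lungs, against 1772, 1707, 1185 and 2002 in WT E19 lungs, which overlapped, a change of -0.37 (SE 0.26, limma adjusted p = 0.347). Its highest KO value, 2482, came from KO E19 replicate 1, and the size of the Fen1 change depends on that array. The 3 tested nucleotide supply genes were lower. Tk1 had 46.6, 175, 435 and 203 in KO E19 lungs, against 474, 718, 638 and 967 in WT E19 lungs, without overlap, and was 71.8% lower, a change of -1.83 (SE 0.39, limma adjusted p = 0.00236), the widest of all members. The value of 46.6 came from KO E19 replicate 1, the array with the highest 3′ to 5′ ratio, and the rank of Tk1 rests on that array. Under the alternative settings the Tk1 change ran from -2.23 to -1.175. Rrm1 had 939, 1207, 1462 and 1392 in KO E19 lungs, against 2072, 2451, 1795 and 2551 in WT E19 lungs, without overlap, a change of -0.82 (SE 0.17, limma adjusted p = 0.00156), and Rrm2 changed by -1.25 (SE 0.31, limma adjusted p = 0.00652).

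**Figure D5:**
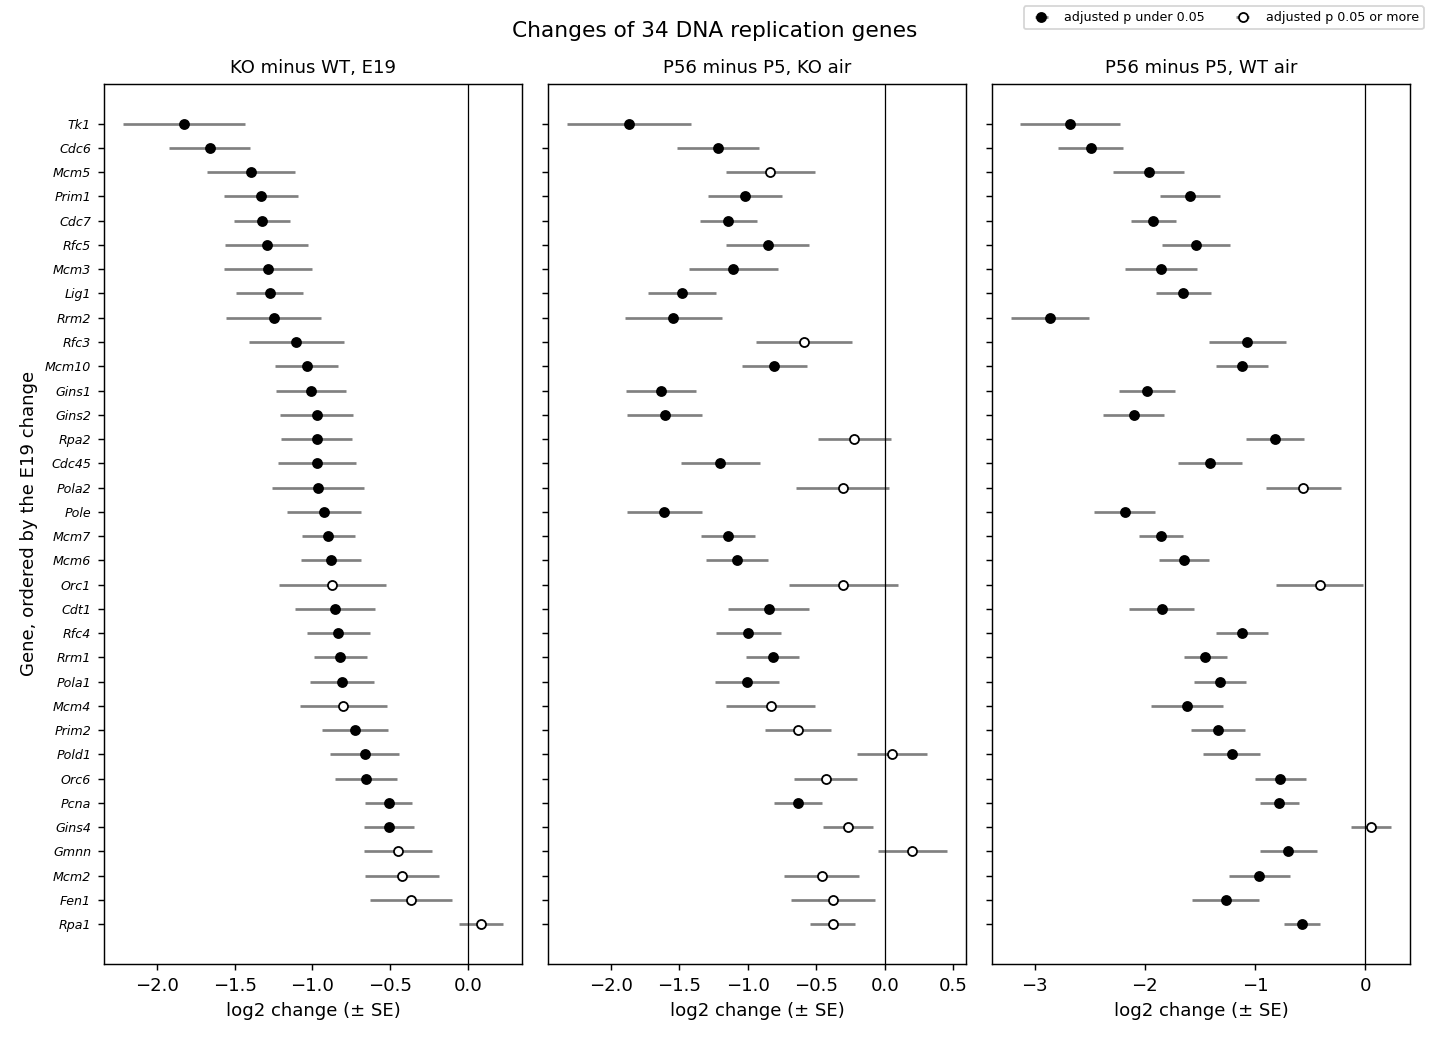
Log2 change ± SE (x axes) of the 34 genes (y axis, ordered by the E19 change) for KO minus WT at E19, P56 minus P5 in KO air and P56 minus P5 in WT air, with filled points for an adjusted p under 0.05. At E19 28 points are filled, and the Rpa1 point at 0.08 is the only one above 0.

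Second probe sets differed from the one used in either direction. With p-values adjusted over all probe sets kept, Mcm2's other probe set changed by -1.84 (limma adjusted p = 0.00217), Orc1's by -1.48 (0.000555), Fen1's by -0.88 (0.00426) and Mcm4's by -0.66 (0.0111), while these 4 genes were not called by the one used. Of the genes called, Rfc4's other probe set changed by -0.56 (limma adjusted p = 0.131) and the dimmest of Mcm5's by -0.29 (limma adjusted p = 0.44), neither of them called. Rpa1's other probe set changed by -0.69 (limma adjusted p = 0.0851), against 0.08 for the one used, so the sign for Rpa1 rests on the probe set. With the mean of all kept probe sets of a gene 32 of 34 genes were lower in KO, and the share of all genes called in that fit is not given here.

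The arrays with high ratios of 3′ to 5′ signal had their own order of genes. KO E19 replicate 1 was the lowest of its group for 9 members and the highest for 15. WT P56 hyperoxia replicate 2 was the lowest of its group for 10 and the highest for 20. Both had the lowest value in their groups for 8 members, Mcm3, Mcm6, Pola2, Rfc3, Rfc5, Rpa2, Rrm1 and Tk1 (88.9% of the 9 and 80.0% of the 10), and both had the highest for 13 (86.7% of the 15 and 65.0% of the 20). Without these 2 arrays 30 members were lower in KO at E19, with a median of -0.92, and the share of all genes called in that fit is not given here. The control probe set at the 5′ end of the ribosomal 18S transcript had 83.6, 1430.5, 20346 and 597 units on the KO E19 arrays, against 20577, 20498, 12047 and 16403 on the WT E19 arrays, so 3 of the 4 KO arrays lay under all WT arrays. The part of RNA quality and of ribosomal signal in the members' values was not tested.

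At P5 in room air no member was called between KO and WT, though 33 of 34 changes were negative, with a median of -0.49. In this comparison 0.0375% of all genes were called, and 12 of 34 members had an unadjusted p under 0.05, all lower, as did 5.57% of all genes in either direction. All KO arrays lay under all WT arrays for 14 members, which held for 8.41% of all genes. Cdc6 changed most and had 84.5, 263 and 214 units in KO P5 air lungs, against 334, 387 and 319 in WT P5 air lungs, a change of -0.91 (SE 0.30, limma adjusted p = 0.685). Mcm5 had 889.5, 2828 and 2655 units in KO, against 3036, 3816 and 3442 in WT, a change of -0.85 (SE 0.33, limma adjusted p = 0.767). Gins4 was highest of the 34, at 0.13. For both Cdc6 and Mcm5 the groups did not overlap, and KO replicate 1 lay far under the other 2 KO arrays.

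KO P5 air replicate 1 lay under both other KO P5 air arrays for 32 of 34 members, under every other P5 array for 31, and within the range of the KO E19 arrays for 31. Its Cdkn1a signal, 1881 units, was also near those of the KO E19 arrays, 1907, 2875, 2524 and 2874, and above the 883 and 924 units of the other 2 KO P5 air arrays. Without it the members' median for KO against WT in P5 air was -0.18, again with no gene called. The liver level differed here too, -1.56 to -0.30 in KO and 1.46 to 3.43 in WT, and with it as a covariate the median was -0.30. The 18S signal was 512, 229 and 1867 units in KO, against 18734, 16417 and 19030 in WT, without overlap, and its part was not tested. With array weights 8 members were called, all lower, where 10.8% of all genes were called.

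Hyperoxia at P5 gave no called member in either genotype. In KO, hyperoxia against air had a median of 0.31, with 32 of 34 changes positive, where 0.345% of all genes were called. At an unadjusted p under 0.05 there were 3 of 34 members and 5.84% of all genes. For 9 members all KO hyperoxia arrays lay above all KO air arrays, as they did for 7.22% of all genes. Without KO P5 air replicate 1 this median was 0.05. Mcm5 had the highest change, with 2715, 3061 and 3225 units in KO P5 hyperoxia lungs, against 889.5, 2828 and 2655 in KO P5 air lungs, 0.66 (SE 0.33, limma adjusted p = 0.86), and these groups overlapped. Orc1 had the lowest, -0.42.

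In WT, all 34 changes of hyperoxia against air were negative, with a median of -0.20, none at an unadjusted p under 0.05, as 3.06% of all genes were, where 0.00749% of all genes were called. For 13 members all WT hyperoxia arrays lay under all WT air arrays, as they did for 9.89% of all genes. Orc1 had the lowest change, with 173, 169 and 85.2 units in WT P5 hyperoxia lungs, against 311, 208 and 174 in WT P5 air lungs, -0.62 (SE 0.40, limma adjusted p = 1), with the highest hyperoxia array just under the lowest air array. Rpa1 had the change nearest to 0, -0.02. With array weights 9 members were called lower, where 24.2% of all genes were called. Without WT P5 air replicate 3 and KO P5 hyperoxia replicate 1, whose Cdkn1a signals were like those of the other exposure, the medians were 0.33 in KO and -0.26 in WT, and no member was called.

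The difference between the genotypes in their response to oxygen at P5 was positive for all 34 genes, with a median of 0.55, and no member was called, where 0.15% of all genes were. At an unadjusted p under 0.05 there were 3 of 34 members and 2.3% of all genes, and with array weights 4 members and 5.35% of all genes were called. Cdc6 had the largest difference, 1.16 (SE 0.42, limma adjusted p = 1), and Gins4 the smallest, 0.06. Without KO P5 air replicate 1 the median was 0.24. The KO P5 hyperoxia arrays also carried skeletal muscle and squamous levels of 3.57 to 3.73 and 2.25 to 2.88, against at most 2.94 and 2.60 on the other P5 arrays, and their part was not tested.

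After hyperoxia at P5 no member was called between KO and WT by limma, 0 at an unadjusted p under 0.05, as 3.02% of all genes were, and 1 with array weights, which called 13.3% of all genes. The median was 0.06, with 23 of 34 positive, where 0.187% of all genes were called (0.015% lower and 0.172% higher). The lowest change was that of Fen1, -0.33, and the highest that of Rfc3, 0.40. At P56 no member was called between KO and WT after hyperoxia (median 0.11, where 0.0375% of all genes were called, 0.015% lower and 0.0225% higher) or in air (median 0.12, where 0.0749% were). At an unadjusted p under 0.05 there were 4 of 34 members after hyperoxia and 2 in air, where 8.72% and 11.8% of all genes passed. Array weights called 11 and 3 members, where they called 35.5% and 20.1% of all genes. In air Rrm2 had the highest change, with 1592, 821 and 1111 units in KO P56 air lungs, against 794, 832 and 585 in WT P56 air lungs, 0.62 (SE 0.35, limma adjusted p = 0.515), and Orc1 the lowest, -0.38. After hyperoxia Orc1 had the highest change, 0.85 (SE 0.40, limma adjusted p = 0.554), with 117, 173 and 209 units in KO, against 108, 21.8 and 153 in WT, and Mcm6 the lowest, -0.55. The groups overlapped for both Rrm2 and Orc1. The low Orc1 value of 21.8 came from WT P56 hyperoxia replicate 2, the array with the high 3′ to 5′ ratio. Without that array the Orc1 change was 0.28, Pold1 had the highest, 0.98, the members' median was 0.10 and none was called.

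At P56 no member was called between mice that had breathed hyperoxia as newborns and mice kept in air, nor did any of the 13345 genes pass the threshold by limma in either genotype (0% of all genes). The medians were 0.03 in KO and 0.04 in WT, and at an unadjusted p under 0.05 the members numbered 0 in KO and 1 in WT, where 2.7% and 5.1% of all genes passed. With array weights 3 members were called higher in KO and none in WT, where 3.47% and 6.68% of all genes were called. Tk1 had the lowest change in KO, -0.32, and Orc1 the highest, 0.39. Orc1 had the lowest in WT, -0.84, and Cdc6 the highest, 0.59. Without WT P56 hyperoxia replicate 2 the Orc1 change in WT was -0.28, Cdc45 had the lowest, -0.36, the median was 0.05 and none was called. The response in KO minus that in WT had a median of -0.03, or -0.05 without that array, with no member called (1 at an unadjusted p under 0.05, as were 2.46% of all genes), where 0% of all genes were called.

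The rest of the replication and cell cycle pathway was read from lists beside the 34 genes. Of 36 tested other replication genes 18 were lower and none higher in KO at E19, with a median of -0.54, led by Chtf18, a subunit of the cohesion clamp loader (-1.69), Clspn, the checkpoint mediator claspin (-1.53), and Wdhd1, which ties polymerase alpha to the helicase (-1.45). Of 26 S-phase control genes 12 were lower, with a median of -0.62, led by the cyclins Ccna2 (-1.65) and Ccne2 (-1.57) and by Dtl, which directs the breakdown of CDT1 (-1.53). Of 34 mitosis genes 30 were lower, with a median of -1.18, led by Birc5 (-1.77), Ube2c (-1.71) and Aurkb (-1.66). Of 6 CDK inhibitor genes only Cdkn1a was called, higher in KO with 1907, 2875, 2524 and 2874 in KO E19 lungs, against 1201, 842, 695 and 702 in WT E19 lungs, a change of 1.55 (SE 0.48, limma adjusted p = 0.0288).

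The same lists were counted for P56 against P5. In KO air 15 of the 36 other replication genes were lower and 1 higher, 16 of 26 S-phase control genes were lower, led by E2f7 (-2.10) and Ccna2 (-2.08), and 33 of 34 mitosis genes were lower, led by Cenpf (-2.61) and Cdk1 (-2.59). In WT air 16 of the other replication genes were lower and 1 higher, led by Clspn (-2.61), Dscc1 (-2.35) and Dut, the enzyme that keeps uracil out of DNA (-1.87). Rrm2b, the ribonucleotide reductase subunit of resting cells, was the one higher, by 0.74 in KO air and 0.69 in WT air, while Rrm2 fell. In WT air 15 of 26 S-phase control genes and 34 of 34 mitosis genes were lower, led by Ccna2 (-2.78) and Cdk1 (-3.25). The median change of the mitosis genes was -1.89 in KO air and -2.49 in WT air, and of the replication genes -0.84 in KO air and -1.43 in WT air. Of the 6 CDK inhibitor genes the one called in air was Cdkn1c, an imprinted growth inhibitor, with changes of -1.87 in KO air and -1.56 in WT air. Of the 10 lung markers none was lower with age in air, and 5 in KO and 3 in WT were higher, led by Car4, a capillary enzyme (1.21 in KO and 1.17 in WT).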

How the data were processed

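Lung RNA from 32 mice was measured on Affymetrix arrays, 1 per mouse, grouped from the labels. The authors deposited an unlogged intensity for each of 45101 probe sets. The software MAS5 appears per the submitters' processing notes; its version is not given in the sources used here. The mean without the lowest and highest 2% of values equalled 500.0 for all 32 arrays, and array medians ran from 68.4 to 124.6. No detection calls were used. Precision is limited by how many arrays a group has.

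A probe set had to exceed 100.4, the median of all values, on 3 or more arrays, as 27089 did, and 23428 of those had 1 gene symbol in the platform annotation. On the whole array 34945 probe sets carried 1 symbol, 932 several and 9160 none, and 64 were controls. Of a gene's kept probe sets the brightest on average was used, giving 13345 genes, and 20 members had several kept probe sets. Before log2, 26.3 (the 25th percentile of the values) was added as offset. All arrays entered 1 limma fit (limma 3.58.1, R 4.3.3, eBayes with trend), with 10 group means and 22 residual degrees of freedom. Fold changes of dim genes are understated on this scale. Tests were two-sided, adjusted by Benjamini-Hochberg over all genes, with a threshold of 0.05, for 18 comparisons. The fit was also run on simulated data with known changes and independent noise. Its recovery rates are not given here. The simulation held no carried-along tissue, uneven RNA quality or outlying array, so it cannot speak for their effects. Genes named with their values were, in each role, those with the largest and smallest E19 change, and the highest and lowest change in each other comparison. The other members are given by change or count, and the genes tied to a limit (Gins4, which has a single probe set, and Rpa1, Orc1 and others with a second one) were named after their values were seen. Of the other lists up to 3 called genes are named, and Rrm2b was chosen after its values were seen.

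The members, their roles and all lists were chosen with earlier results of these data known. Same-numbered arrays of compared groups made 46 pairs, of which 10 had deviations correlated above 0.1 (from -0.41 to 0.28). In 1 of the 15 comparisons, KO against WT at P5 after hyperoxia, all pairs lay above 0.1 (0.25, 0.11 and 0.17). The arrays were treated as unpaired throughout, with a replicate block among the alternatives. Promoters came from RefSeq tables on GRCm38.p6. The alternatives were other filters, offsets and scalings, probe set choices, array weights, a replicate block, covariates for liver, erythroid and heart levels, the compared groups alone, and arrays left out.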

Additional observations from a re-analysis of the deposited data

Results flagged for a closer look

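In 70 groups of 4 arrays (34 genes and the replication level, KO E19 and WT E19), 6 held an array whose gap to the next, as a share of the group's range, passed Dixon's critical value, where chance gives about 1 in 20. The genes were read on the same arrays and the level averages them. The 70 groups are thus not independent, and the 6 cannot be told from that rate. In KO E19, replicate 2 had 87.1 units of Mcm10 and 903 units of Rrm2, both the lowest of the group, and replicate 1 had 49.8 units of Rfc3, also the lowest. In WT E19, replicate 4 had 1066 units of Rfc4 and 1030 units of Rfc5, both the highest of the group, and replicate 2 had 1327 units of Mcm2, the highest. Without WT E19 replicate 4 the number of members lower in KO at E19 was 20, and without KO E19 replicate 2 it was 25, against 28 with all arrays. The shares of all genes called in the fits without these arrays are not given here. No member's oxygen response or course across birth was called as differing between the genotypes.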

How the results depend on the processing

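Values here are counts of the 34 replication genes called, and most stand without the share of all genes called under the same setting. For KO against WT at E19 (28 with all arrays) the count was 18 with centring on array medians, 1 with the liver level, 1 with the erythroid level, 1 with the compared groups alone and 0 with WT E19 replicate 1 as the only WT array. Leaving out each array in turn gave 20 to 28. For P5 air against E19 in KO (4) it was 7 with an offset of 100, 2 with centring, 10 with the mean of all kept probe sets, 29 with array weights, 9 with the replicate block, 8 with the liver level, 0 with the compared groups alone and 10 without the 2 arrays of high 3′ to 5′ ratio, and leaving out each array gave 0 to 22. In WT (1 lower) it was 2 with an offset of 100, 2 with only probe sets without shared probes (1 lower and 1 higher) and 13 with array weights, where the direction turned to 2 lower and 11 higher, and leaving out each array gave 0 to 1.

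With array weights, which let arrays count unequally, comparisons without a call gained some, where 2.45% to 35.5% of all genes were called in them. KO against WT had 8 in P5 air, 11 at P56 after hyperoxia, 3 at P56 in air and 1 at P5 after hyperoxia. Hyperoxia against air had 9 in WT at P5, 1 in KO at P5 and 3 in KO at P56. The genotype differences had 4 for oxygen at P5, 1 for oxygen at P56 and 1 for age. The compared groups alone gave 1 for KO against WT in P56 air. For P56 against P5 after hyperoxia in WT (29) the erythroid level left 17. The 4 age comparisons kept 15 to 24 in KO air, 26 to 29 in WT air, 23 to 25 in KO after hyperoxia and 23 to 26 in WT after hyperoxia when each array was left out. The difference between the mean replication levels of KO and WT at E19 was -0.93, and -0.65 with centring. The cause of these shifts was not tested.

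The replicate block gave 27 at E19 and 20 to 31 for P56 against P5, and beside the 9 above it moved no count by more than 1.5 times. Of 3016 values of single called genes under the alternatives 2676 stayed past the threshold, 340 did not and 0 changed sign. Chosen after seeing the data were the heart covariate, the arrays of high 3′ to 5′ ratio and the probe sets without shared probes as settings.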
